A study of Homo sapiens with 6 samples.

Results

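The 7 genes described here encode the enzymes that make and recycle tetrahydrobiopterin, and the protein that restrains its synthesis: GCH1, PTS, SPR, GCHFR, QDPR, PCBD1 and PCBD2. They were taken by symbol, through their Ensembl identifiers, from the 63086 genes of a count table of HEK293T, a human line derived from embryonic kidney cells. The queuine-depleted group (0Q) was grown in medium with dialyzed serum, and the queuine-supplemented group (100Q) was made from 0Q cells given queuine, at 100 nM by the sample characteristics and at 1 µM for 24 hours by the treatment protocol. Each group gave 3 mRNA-seq libraries from total RNA, and all carry the same line with no other treatment named. The labels say that cells were grown in triplicate but not that the triplicates were cultures kept apart, so the tests here weigh differences against a spread between libraries that may be technical.

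Tetrahydrobiopterin is a cofactor of the hydroxylation of aromatic amino acids, the step from phenylalanine to tyrosine included, and of the nitric oxide synthases. GCH1, PTS and SPR build it from GTP, QDPR and the PCBD dehydratases return the oxidized cofactor to use, and GCHFR binds GCH1 and mediates its feedback inhibition. Queuine is a base taken up from food and gut bacteria and inserted as queuosine into the anticodon of the tRNAs that carry aspartate, asparagine, histidine and tyrosine, whose codons end in U or C after A. Lack of queuine has been linked to disturbed tetrahydrobiopterin and tyrosine supply in animals and cells.

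Because queuosine acts where these codons are read, the coding sequences of the 7 genes were compared first, and the starts of 3 are shown for how far apart they lie. Each line gives the first 300 coding bases (100 codons) of the canonical transcript in GENCODE release 44 (hg38), as DNA letters 5′ to 3′, with the codons of these tRNAs (tyrosine, histidine, asparagine, aspartate) in capitals.
PTS: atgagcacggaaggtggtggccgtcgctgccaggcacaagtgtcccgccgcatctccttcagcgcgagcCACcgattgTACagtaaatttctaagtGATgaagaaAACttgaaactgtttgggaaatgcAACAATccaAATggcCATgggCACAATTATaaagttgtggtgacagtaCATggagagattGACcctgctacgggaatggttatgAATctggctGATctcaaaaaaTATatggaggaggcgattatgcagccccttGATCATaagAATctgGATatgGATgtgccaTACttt
SPR: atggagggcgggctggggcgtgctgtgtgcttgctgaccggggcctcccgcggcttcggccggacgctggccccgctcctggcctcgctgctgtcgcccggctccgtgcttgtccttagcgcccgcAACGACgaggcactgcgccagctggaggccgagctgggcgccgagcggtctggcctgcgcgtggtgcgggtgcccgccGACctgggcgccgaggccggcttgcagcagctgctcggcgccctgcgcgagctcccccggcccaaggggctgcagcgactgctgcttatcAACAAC
QDPR: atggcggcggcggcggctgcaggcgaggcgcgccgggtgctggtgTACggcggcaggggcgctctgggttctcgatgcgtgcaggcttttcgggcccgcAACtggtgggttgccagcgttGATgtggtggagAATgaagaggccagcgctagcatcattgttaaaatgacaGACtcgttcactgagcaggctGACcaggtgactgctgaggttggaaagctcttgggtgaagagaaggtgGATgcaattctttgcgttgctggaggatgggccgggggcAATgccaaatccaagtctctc
In this window PTS held 22 such codons, 15 of them ending in T and 7 in C. SPR held 5, all of them ending in C. QDPR held 8, split evenly with 4 of each kind.

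PTS, which makes the 6-pyruvoyl intermediate of the synthesis, stood at the far end of the tested genes in this respect. Over its whole coding sequence of 145 codons, 33 (22.8%) were for the 4 amino acids, and it ranked 19 of 12751 coding genes tested, with a median of 13.7% and a central 90% range of 8.44% to 18.1% among them. Asparagine gave 11 of the 33, aspartate 9, tyrosine 8 and histidine 5. PCBD1, a pterin carbinolamine dehydratase, followed with 17.3% (18 of 104 codons) and GCHFR with 15.5% (13 of 84). PCBD2, the paralog of PCBD1, had 13.1%, SPR 11.5%, GCH1 11.2% and QDPR 9.43%, the last at percentile 8.84 of the coding genes tested. PTS alone of the 7 lay outside the central 90% range, and the median of the 7 was 13.1%.

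The choice between C and T at the third base also ran from one side of the distribution to the other. In SPR, which reduces the intermediate to the finished cofactor, 24 of 30 such codons (80.0%) ended in C, at percentile 87.4. In PTS 11 of 33 (33.3%) did, at percentile 13.0. PCBD1 had 72.2%, GCHFR 61.5%, QDPR 56.5%, and PCBD2 52.9%, and in GCH1 14 of 28 did, against a median of 55.6% over the 12751 genes. These shares are properties of the annotated sequence and hold no measurement of decoding.

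**Figure D1:**
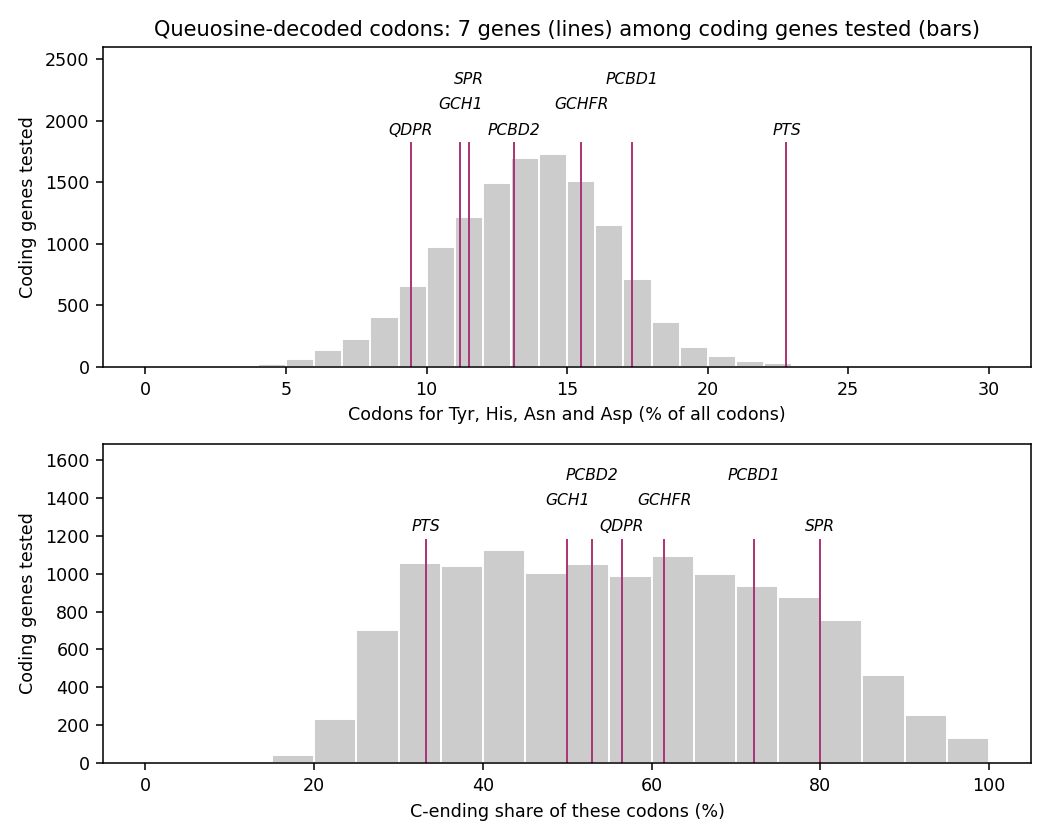
Histograms of the share of queuosine-decoded codons (top, percent of all codons) and of the C-ending share of these codons (bottom, percent) over 12751 coding genes tested, with lines at the 7 genes. PTS lies at 22.8% in the upper panel, beyond nearly all other genes, and at 33.3% in the lower one, while SPR lies at 80.0% there.

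The libraries held 4023956 to 11398835 estimated counts, with 100Q replicate 2 the shallowest and 100Q replicate 3 the deepest. All 7 genes passed the filter on low counts (14905 genes tested), with 29.7 to 404 estimated counts per library, and each of them was present in every library of both groups. Markers of HEK293T cells (NEFL, NEFM, INA, PAX2, LIN28B) were all present, with summed levels of 404 to 444 CPM in 0Q and 366 to 401 CPM in 100Q. Of 10 markers of other cell types, PTPRC, CD3E, HBB and UMOD were at 0 in every library, and the summed levels of the 10 were 31.4 to 39.5 CPM in 0Q and 36.2 to 38.7 CPM in 100Q, with the collagen genes COL1A1 and COL3A1 at means of 28.9 and 3.92 CPM. The globin HBA1, whose reads can be shared with a near-identical copy, had a mean of 2.89 CPM and was above 0 in 5 of 6 libraries. APOA1 had 17 counts, all in 0Q and 14 of them in 0Q replicate 3, NPHS1 had 11 and ALB 1.

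Messenger RNA of none of the 7 genes passed the test between 100Q and 0Q. The edgeR quasi-likelihood test at a Benjamini-Hochberg adjusted p under 0.05 called 0 of 7, against a background of 0.0134% of the genes tested (2 of 14905, both higher in 100Q), and adjusted p ran from 0.987 to 0.996. At an unadjusted p under 0.05 there were also 0 of 7, against 4.72% of the genes tested, and DESeq2 and limma-voom called 0 of 7 as well, against 0.059% and 0.00671% of their genes. The groups overlapped in all 7 genes, whereas they did not overlap in 10.6% of the genes tested (higher in 100Q in 5.39%). The log2 fold change (100Q minus 0Q) was positive in 5 and negative in 2, with a median of 0.033 against -0.0027 over all genes tested. The 95% interval of the difference lay within a 2-fold change in either direction for all 7 genes, and within a 1.5-fold change for 5, all but GCHFR and PCBD2. Of the 14905 genes tested, 11314 lay within a 2-fold and 8673 within a 1.5-fold change. Of the 4352 tested genes in the CPM range of the 7, 4141 and 2337 did, so such intervals are common at these levels.

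**Figure D2:**
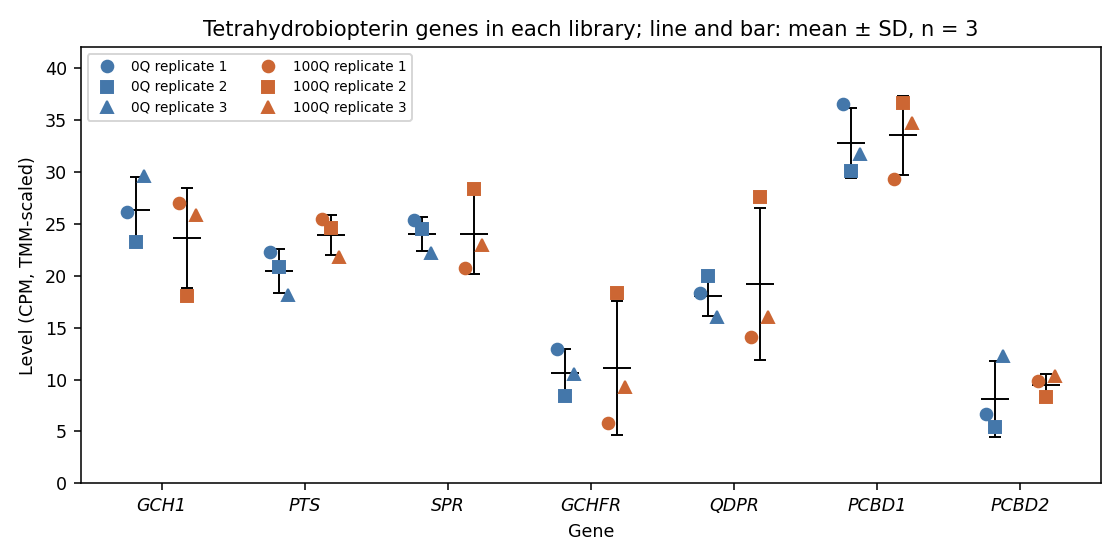
Level of each gene in each library in CPM (counts scaled to the TMM-adjusted library total), with 0Q in blue and 100Q in orange, symbols for the replicate number, and mean ± SD (n = 3 per group) in black. The points of the groups overlap for every gene, and GCHFR and QDPR have a wide spread in 100Q, from 5.78 to 18.3 CPM and from 14.1 to 27.6 CPM.

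Among the genes of synthesis, GCH1 (chromosome 14, 54842008 to 54902826, hg38), the first and rate-limiting enzyme, had 26.1, 23.3 and 29.6 CPM in 0Q replicates 1 to 3 and 27.0, 18.1 and 25.8 CPM in 100Q replicates 1 to 3. Only 100Q replicate 2 lay below the 0Q libraries, and the other two of 100Q lay among them. The log2 fold change was -0.14 ± 0.17 (SE; 95% interval -0.51 to 0.23; Benjamini-Hochberg adjusted p = 0.991 by the edgeR quasi-likelihood test). Without 100Q replicate 2 it was 0.0002.

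PTS (chromosome 11, 112226367 to 112269955), the gene with the codon makeup described above, had 22.3, 20.9 and 18.1 CPM in 0Q and 25.4, 24.6 and 21.8 CPM in 100Q, in the order of replicates 1 to 3. The highest value of 0Q lay just above the lowest of 100Q, and the other 4 libraries were ordered by group. Its log2 fold change was 0.22 ± 0.16 (SE; 95% interval -0.12 to 0.56), a fold of 1.16, which did not pass (Benjamini-Hochberg adjusted p = 0.987 by the edgeR quasi-likelihood test). It kept its sign with each library left out, at 0.14 to 0.29. The size of this difference was at percentile 70.3 among the genes tested. PTS shares 177 exonic bases with the pseudogene RPS6P16 on the opposite strand, and its estimated counts were whole numbers in all 6 libraries.

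SPR (chromosome 2, 72887382 to 72892158), sepiapterin reductase, had 25.4, 24.5 and 22.2 CPM in 0Q and 20.8, 28.4 and 23.0 CPM in 100Q. The 3 values of 100Q spanned those of 0Q on both sides. The means were 24.0 ± 1.66 and 24.1 ± 3.90 CPM (SD, n = 3 each), and the log2 fold change was -0.0095 ± 0.16 (SE; 95% interval -0.35 to 0.34; Benjamini-Hochberg adjusted p = 0.996 by the edgeR quasi-likelihood test).

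GCHFR (chromosome 15, 40764068 to 40767708), the feedback regulator of GCH1, varied most among the 7. It had 13.0, 8.43 and 10.6 CPM in 0Q and 5.78, 18.3 and 9.27 CPM in 100Q, so that its lowest and its highest library, 3.17-fold apart, were both in 100Q. The log2 fold change was 0.028 ± 0.34 (SE; 95% interval -0.71 to 0.76; Benjamini-Hochberg adjusted p = 0.996 by the edgeR quasi-likelihood test). It was -0.47 when 100Q replicate 2 was left out and 0.32 when 100Q replicate 1 was, and neither passed.

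The counts of GCHFR are also the least certain of the 7. Of its 1481 exonic bases, 1149 lie under exons of DNAJC17, a gene on the opposite strand that encodes a J-domain protein. GCHFR was the only one of the 7 with fractional estimates in all 6 libraries, and in each of them its estimate and that of DNAJC17 summed to a whole number, within 0.015. The pair had 92.81 and 60.19 counts in 0Q replicate 1, for example, a sum of 153, and 73.41 and 49.59 in 100Q replicate 2, a sum of 123. GCHFR received 41.8% to 60.7% of the sum over the 6 libraries. Whether the counting used strand is not given in the sources used here, so the division of these reads is an estimate of the authors' counting tool.

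With the 2 genes counted as 1, the libraries kept the same extremes. The sums were 21.4, 19.4 and 17.8 CPM in 0Q and 13.7, 30.9 and 16.6 CPM in 100Q. The lowest and the highest were again replicates 1 and 2 of 100Q, with the 0Q libraries between them. The sum had a log2 fold change of 0.029 ± 0.24 (SE; 95% interval -0.49 to 0.55; Benjamini-Hochberg adjusted p = 0.996 by the edgeR quasi-likelihood test), and DNAJC17 alone had 0.038 ± 0.30 (SE).

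**Figure D3:**
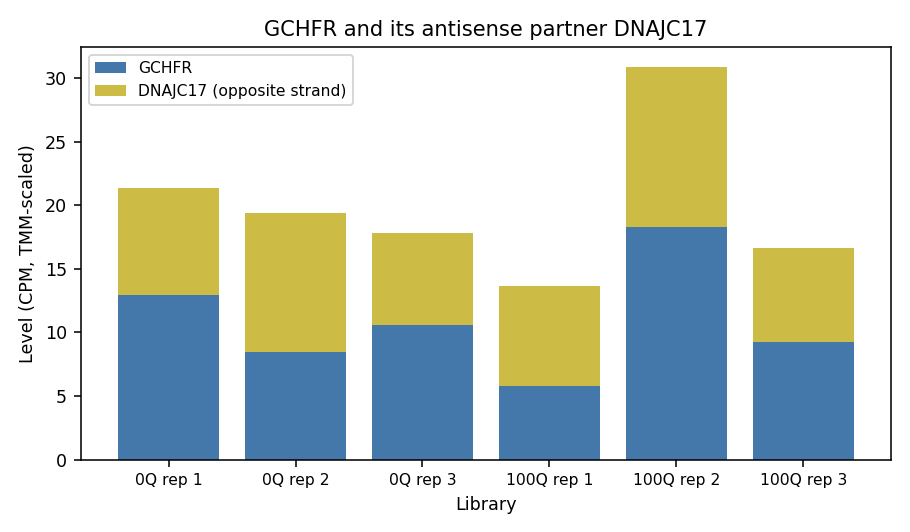
Stacked bars of the levels of GCHFR (blue) and of DNAJC17 on the opposite strand (yellow) in each library, in CPM. The stacks run from 13.7 CPM in 100Q replicate 1 to 30.9 CPM in 100Q replicate 2, and both genes are highest in the latter.

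The ratio of GCHFR to GCH1 was given as a description of each library, since the proteins act as a complex. Per kilobase of exon, it was 0.982, 0.715 and 0.705 in 0Q and 0.423, 2.00 and 0.709 in 100Q. In 100Q replicate 2 both sides of the ratio were extreme, GCHFR at its highest and GCH1 at its lowest. The means were 0.801 ± 0.157 and 1.04 ± 0.840 (SD, n = 3 each), so that the groups overlapped. The level of this ratio depends on the gene length used and on the division of reads with DNAJC17, and messenger RNA says nothing here of the proteins.

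Among the genes of recycling, QDPR (chromosome 4, 17460261 to 17512206), the dihydropteridine reductase that restores the active cofactor, had 18.3, 20.0 and 16.0 CPM in 0Q and 14.1, 27.6 and 16.1 CPM in 100Q. As for GCHFR, replicate 1 of 100Q was the lowest library and replicate 2 the highest, and the 0Q libraries lay near each other. The log2 fold change was 0.058 ± 0.23 (SE; 95% interval -0.43 to 0.55; Benjamini-Hochberg adjusted p = 0.995 by the edgeR quasi-likelihood test). Leaving out 100Q replicate 2 gave -0.26, and leaving out 100Q replicate 1 gave 0.22, which did not pass either.

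PCBD1 (chromosome 10, 70882280 to 70888565), which removes water from the carbinolamine left by the hydroxylases, had the smallest fold range between libraries of the 7. It also had the most counts of the 7, 1443 over the 6 libraries. Its levels were 36.6, 30.1 and 31.7 CPM in 0Q and 29.3, 36.7 and 34.7 CPM in 100Q, 1.25-fold from the lowest to the highest. The log2 fold change of 0.033 ± 0.14 (SE) had a 95% interval of -0.27 to 0.34, the narrowest of the 7 (Benjamini-Hochberg adjusted p = 0.995 by the edgeR quasi-likelihood test).

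PCBD2 (chromosome 5, 134905120 to 135007959), its paralog, was at 6.70, 5.41 and 12.3 CPM in 0Q and 9.82, 8.29 and 10.3 CPM in 100Q. Here 0Q replicate 3 stood above all other libraries, and the other two of 0Q lay below all of 100Q. The log2 fold change was 0.23 ± 0.32 (SE; 95% interval -0.46 to 0.92; Benjamini-Hochberg adjusted p = 0.991 by the edgeR quasi-likelihood test). It was 0.65 without 0Q replicate 3 and did not pass there (over all alternatives of the 7 genes the adjusted p was 0.815 or more). CATSPER3 on the same strand shares 580 of its 8324 exonic bases and had at most 3 counts in a library.

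**Figure D4:**
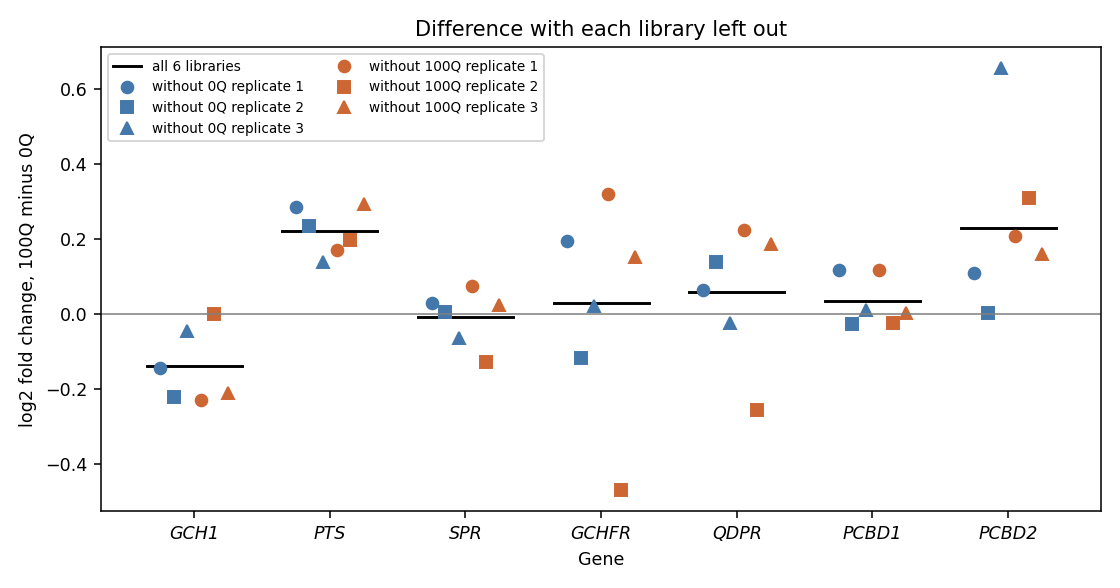
Log2 fold change (100Q minus 0Q) of each gene with all 6 libraries (black line) and with 1 library left out (symbols, coloured by the group of the library left out). GCHFR runs from -0.47 to 0.32 and PCBD2 from 0.0034 to 0.65, whereas PTS stays between 0.14 and 0.29.

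The spread between libraries differed among the 7 genes. Set against counting error alone, the chi-square per degree of freedom within 100Q was 18.5 for GCHFR and 13.9 for QDPR, and within 0Q it was 12.6 for PCBD2. All the other values, in either group, lay between 0.613 and 4.38. Over the 4352 tested genes in the same range of CPM, the median was 2.56 in 0Q and 2.61 in 100Q. The highest library was 100Q replicate 2 in 4 of the 7 genes (SPR, GCHFR, QDPR, PCBD1), and in the same 4 genes 100Q replicate 1 was the lowest. Among the 4352 genes, 100Q replicate 2 was highest in 22.9% and 100Q replicate 1 lowest in 18.9%. Replicate 2 is also the shallowest library, and the part of depth in these values was not tested.

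Levels were compared between genes per kilobase of the union of their exons, as mean ± SD of CPM per kilobase over the 6 libraries. PCBD1 was highest at 23.8 ± 2.34, followed by SPR at 16.5 ± 1.84. GCH1 at 8.54 ± 1.35, GCHFR at 7.35 ± 2.94 and PTS at 7.09 ± 0.845 came next. GCH1 lay above PTS in every library except 100Q replicate 2, where they were at 6.18 and 7.87. QDPR followed at 4.50 ± 1.17, and PCBD2 was lowest at 1.06 ± 0.302. PCBD1 kept the first and PCBD2 the last place with the length of the longest or of the canonical transcript, whereas PTS, whose exon union of 3128 bases is far longer than its canonical transcript of 872, moved from the fifth place to the second, at 25.4 ± 3.03 per kilobase of the latter. Per kilobase of the canonical transcript, GCH1 moved from the third place to the sixth at 8.56 ± 1.35, below GCHFR and below QDPR at 12.4 ± 3.22, so that the order of the middle genes depends on the length used.

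For each gene the most similar pattern was sought over the 6 libraries in the 10585 genes that averaged 10 CPM or more, by Pearson's r of log2 CPM, as a description. CD99L2 was closest to GCH1 (r = 0.997), SLC25A3 to PTS (0.996), HRAS to SPR (0.988) and LMX1B to GCHFR (0.997). VPS16 was closest to QDPR (0.998), SMG9 to PCBD1 (0.996) and ZKSCAN3 to PCBD2 (0.993). From 18 genes (for PCBD2, 0.17% of those compared) to 58 (for GCH1, 0.548%) had an r above 0.95. Each named gene is the highest of 10585 over only 6 points, and whether any of them shares regulation with its gene was not tested. The points share their library sizes and scaling.

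Most of the 7 enzymes examined that use tetrahydrobiopterin had few or no counts in these cells. Tyrosine hydroxylase (TH), TPH2 and the ether lipid-cleaving AGMO had 0 counts, which allows up to 3 counts over the 6 libraries for each. NOS1 had 3 counts in all and NOS3 16.3. NOS2, the inducible nitric oxide synthase, was at 4.59 ± 1.66 (0Q) and 4.16 ± 0.767 CPM (100Q), and TPH1, a tryptophan hydroxylase, at 1.47 ± 0.516 and 1.25 ± 0.480 CPM (SD, n = 3 each). Of the 7 genes, these last 2 were tested, and 0 passed. The co-chaperone of the hydroxylases, DNAJC12, was present at 18.6 ± 1.71 (0Q) and 15.7 ± 2.23 CPM (100Q), with a log2 fold change of -0.24 ± 0.18 (SE).

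Reductases that can stand in at the steps of SPR were examined beside the 7 genes. The aldose reductase AKR1B1 had a log2 fold change of -0.12 ± 0.09 and the carbonyl reductase CBR1 one of -0.22 ± 0.10 (SE). Of the 4 tested genes of this list, counted with DNAJC12, 0 passed. All 4, the co-chaperone included, had negative values, as did 7541 of the 14905 genes tested. The median of the 4 was -0.22 against -0.0027 over all genes tested, and CBR3 had -0.21 ± 0.45 (SE). CBR1 alone had an unadjusted p under 0.05 (4.72% of all genes tested did), with an adjusted p = 0.987 (edgeR quasi-likelihood, Benjamini-Hochberg). Estimates of CBR1 were fractional, so its reads can be shared with other genes, and which these are was not examined.

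All 6 tested carriers of phenylalanine and tyrosine had positive log2 fold changes, and 0 of them passed. SLC7A5, the light chain of the main exchanger, was at 262 ± 16.1 (0Q) and 295 ± 45.3 CPM (100Q; mean ± SD, n = 3 each), and SLC3A2, its heavy chain, at 171 ± 14.9 and 193 ± 14.7 CPM. Their log2 fold changes were 0.17 ± 0.10 and 0.17 ± 0.09 (SE), and the other 4 had 0.061 to 0.20, among them SLC43A1 at 0.19 ± 0.16 and SLC16A10 at 0.061 ± 0.16. Over all genes tested, 7364 of 14905 were positive. The groups overlapped in all 6 genes, against 10.6% of all genes tested in which they did not, and the median of the 6 was 0.17 against -0.0027 over all genes tested. SLC6A14 had 0 counts in every library.

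In the breakdown of tyrosine, FAH, which cleaves fumarylacetoacetate at the last step, was at 32.1 ± 3.65 (0Q) and 31.1 ± 4.90 CPM (100Q; mean ± SD, n = 3 each). Few counts were found for some other genes of the list, with 7 for TAT, 6 for HPD and 5 for HGD over the 6 libraries. Of the 5 tested genes of the list, the aminotransferases GOT1 and GOT2, which serve many pathways, had 0.10 ± 0.12 and -0.064 ± 0.07 (SE), and MIF, which has phenylpyruvate tautomerase activity, had -0.15 ± 0.07 (SE) with an unadjusted p under 0.05 and an adjusted p = 0.987 (edgeR quasi-likelihood, Benjamini-Hochberg). None of the 5 passed. Estimates of MIF were fractional in every library and those of GOT2 in some, so their reads can also be shared with other genes.

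**Figure D5:**
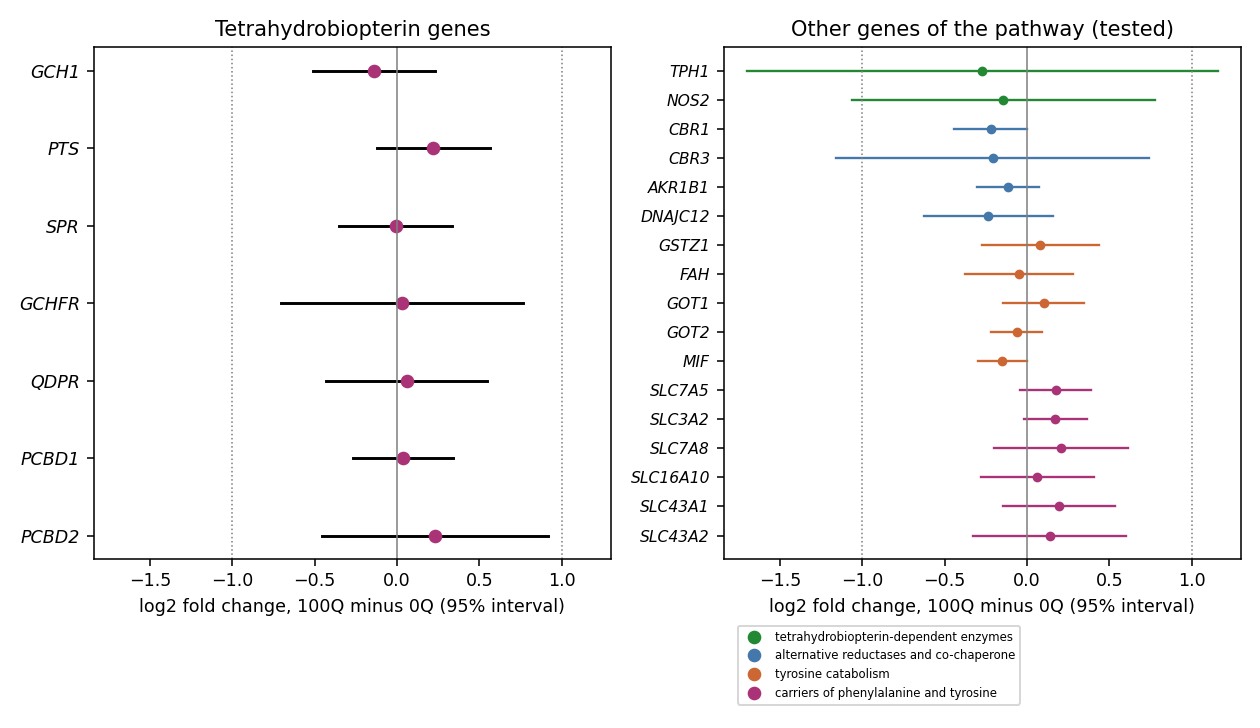
Log2 fold changes (100Q minus 0Q) with 95% intervals for the 7 genes (left) and for the 17 tested genes of the other lists (right, coloured by list), with dotted lines at a 2-fold change. All 7 intervals on the left cross 0 and lie within the dotted lines.

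Over these lists together, 17 of 29 genes were tested. The edgeR quasi-likelihood test called 0 of them after Benjamini-Hochberg adjustment, 2 had an unadjusted p under 0.05 (4.72% of all genes tested did), and the groups did not overlap in 2 (GOT2, MIF; 10.6% of all genes tested), both lower in 100Q.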

How the data were processed

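Messenger RNA of 6 HEK293T libraries was analysed, 3 per group, grouped by the submitters' sample titles. The authors deposited estimated counts for each Ensembl gene, without normalization. FastQC, STAR and RSEM are named in the submitters' processing notes without versions, and the series design names hg38. For the annotation, the strand setting and molecular identifiers, nothing is stated in the labels or headers.

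After rounding, the counts were tested over all genes with the two-sided quasi-likelihood test of edgeR 4.0.16 (R 4.3.3; TMM; default filter, minimum count 10; Benjamini-Hochberg adjusted p under 0.05). SE was back-calculated from that test, as the absolute log2 fold change over the square root of its F statistic. The 95% intervals used this SE and the t distribution. CPM are counts scaled to the TMM-adjusted library total. Symbols, coordinates, lengths and coding sequences (longest per gene, ATG to stop) came from GENCODE release 44, and 62541 of 63086 identifiers matched. Alternatives were RLE, library size only, no or a stricter filter (mean count 50), a replicate block, DESeq2 1.42.0, limma-voom (limma 3.58.1) and each library left out; summed overlapping partners and canonical lengths were added after seeing the data. The genes, lists and rules were chosen with earlier results of these data known. All 7 genes are named, with at most the 4 genes of highest CPM per pathway list and genes with too few counts by their sums. Marker genes and overlapping genes were named after their values were seen. Some genes of the lists are not reported here, and list counts cover the others. Limits of counts cover counting error only.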

Additional observations from a re-analysis of the deposited data

How the results depend on the processing

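Over 93 alternative values of the 7 log2 fold changes, 0 passed (adjusted p 0.815 or more), 78 kept their sign and 15 did not. Outside the left-out libraries the sign changed for SPR with library size only (0.0100), for GCHFR with the replicate block (-0.049) and with limma-voom (-0.15), and for QDPR with limma-voom (-0.065). With 1 library left out the range was -0.23 to 0.0002 for GCH1, 0.14 to 0.29 for PTS, -0.13 to 0.075 for SPR, -0.47 to 0.32 for GCHFR, -0.26 to 0.22 for QDPR, -0.027 to 0.12 for PCBD1 and 0.0034 to 0.65 for PCBD2, and the median of the 7 ran from -0.025 to 0.17. Among the 7 genes and among the other lists 0 were called in each of these fits. Over all genes the count of 2 was 71 with no filter on low counts, 1 with the stricter filter, 14 with DESeq2, 1 with limma-voom, 3 with the replicate block and 0 to 6 with 1 library left out; the cause was not tested. Correlations of the deviations of same-numbered libraries were 0.001, -0.02 and 0.081, and not every library correlated best with its own number. With 3 libraries per group, these values cannot show whether same-numbered libraries came from a shared culture. The ratio of GCHFR to GCH1 was 1.51 in 0Q and 1.97 in 100Q with the longest transcript as length, and 1.62 and 2.12 with the canonical one. With DNAJC17 added it was 1.48 and 1.88. These choices change the length or the counts used. In the last, the summed counts were divided by the exon length of GCHFR alone, so it is not a per-length level of GCHFR. Canonical coding sequences gave the same codon shares for all 7 genes. GCHFR and PCBD2 had 29.7 to 120 counts per library.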
